A study of Mus musculus with 9 samples.

Results

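The genes described here are 54 neighbours on mouse chromosome 3, listed as running from Ampd1 to Hs2st1. They were chosen from measured values of these arrays, as genes of a stretch that stood higher in shZeb1_D cells than in Scr cells, and each is represented by its probe set with the highest mean. Of the 54, 53 were measured, each by 1 probe set, out of 19572 probe sets with a gene symbol. Nfkb1, the remaining one, had no probe set under its name and was not analysed here. In the order of the RefSeq table the first measured member is Sike1, followed by Nras and Ampd1, and the last is Hs2st1. A further 190 measured genes lie between the first and the last member.

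The arrays compared cells of C1498, a mouse acute myeloid leukaemia line, in 3 groups of 3. Cells labelled shZeb1_D (arrays 13, 14 and 15) and shZeb1_C (arrays 10, 11 and 12) carried a lentiviral short hairpin RNA against Zeb1, of sequence D or C, together with green fluorescent protein. Cells labelled Scr (arrays 7, 8 and 9) carried a negative control construct with the same fluorescent protein. In all 3 groups the virus was added overnight and fluorescent cells were isolated 2 weeks later, so no group was left without virus or sorting. Total RNA was hybridised to 1-colour arrays, and every value below is on the log2 scale unless a fold is named. Values by array are given in the order of the array numbers above.

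Neighbouring genes on a chromosome usually have separate promoters and unrelated products, but they share their copy number, because a gained or lost stretch of DNA carries all of its genes with it. Cultured leukaemia lines are known for such gains and losses. Zeb1 is a zinc-finger transcription factor that mostly represses genes, and it binds E-box sequences of the letters CACCTG. The members include a RAS gene, a lymphocyte phosphatase, a myeloid growth factor, a translation factor and enzymes of nucleotide, lipid and starch metabolism, so chromosomal position is what the list has in common.

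Zeb1 itself stood at 9.56, 9.26 and 9.40 on the shZeb1_D arrays, at 10.41, 10.01 and 10.34 on the shZeb1_C arrays and at 10.52, 10.29 and 10.56 on the Scr arrays. It was lower in shZeb1_D than in Scr by -1.05 ± 0.16 (SE; limma adjusted p = 0.0263), while in the arrays labelled shZeb1_C the difference was -0.20 ± 0.16 (limma adjusted p = 0.895). The shZeb1_D call was lost without Scr 7, 8 or 9 or shZeb1_D 14 or 15 (adjusted p 0.0502 to 0.157), at differences of -1.13 to -0.98. The hairpin label of shZeb1_C is therefore not matched by a clear fall of its target. The first principal component of the residuals within groups held 67.6% of their variance and set 4 arrays, Scr 8, shZeb1_C 12 and shZeb1_D 14 and 15, apart from the other 5. Some results below are also given without those 4 arrays or within each set, and the others pool all 9 arrays. Of 10 measured myeloid leukaemia markers 3 (Ptprc, Csf2rb and Mpo) exceeded the median level over probe sets. Itgam, Csf1r, Cd33, Kit, Spi1, Cebpa and Lyz2 did not. Group means of Csf2rb (7.36 to 7.66) and Mpo (7.61 to 7.72) lay near that level of 7.10. The T cell markers Cd3g and Cd3e averaged 15.44 and 13.80 in shZeb1_D, 15.56 and 14.92 in shZeb1_C, and 15.53 and 14.65 in Scr. Of the 5 T cell markers listed 4 were measured. Cd4 averaged 8.10 in shZeb1_D, 8.16 in shZeb1_C and 7.89 in Scr. Cd8a, below the median level of 7.10, averaged 6.58, 6.41 and 6.32. Of the 3 NK cell markers, Nkg7 averaged 5.19 in shZeb1_D, 10.52 in shZeb1_C and 4.58 in Scr. In shZeb1_C it was higher than in Scr by 5.93 ± 0.80 (SE; limma adjusted p = 0.0109). Klrb1c averaged 6.06, 7.10 and 5.58 in the same order, and Ncr1 averaged 4.68, 4.77 and 4.69. Nothing in the labels says that replicate arrays were separate cultures, so the p-values reflect spread among these samples alone, and that spread may be technical.

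Taken over the 53 measured members, values in shZeb1_D stood above those in Scr, with a median difference of 0.36 (a fold of 1.29) and a middle range from 0.13 to 0.53. The difference was above 0 for 43 members. Over all named probe sets the median difference was 0.04, with 55.6% above 0. Since the members were chosen for this shift, the numbers describe its size and evenness and carry no test. In a bulk sample, more cells of a kind and more RNA per cell cannot be told apart.

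By array, the median over members of the value minus the Scr mean was 0.45, 0.29 and 0.22 on the shZeb1_D arrays. It was 0.03, 0.04 and 0.10 on the shZeb1_C arrays, and -0.08, 0.05 and 0.02 on the Scr arrays. All 3 shZeb1_D arrays lay above the 6 others. Within the sets of arrays, shZeb1_D 13 stood a median of 0.48 above the mean of Scr 7 and 9. The mean of shZeb1_D 14 and 15 stood a median of 0.27 above Scr 8. In each case 46 of 53 members were above 0, with no share over all probe sets to set beside it. These same arrays chose the members, so the values describe the shift and carry no test. Without the 4 arrays that stood apart the median was 0.48, from 1 shZeb1_D array.

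**Figure D1:**
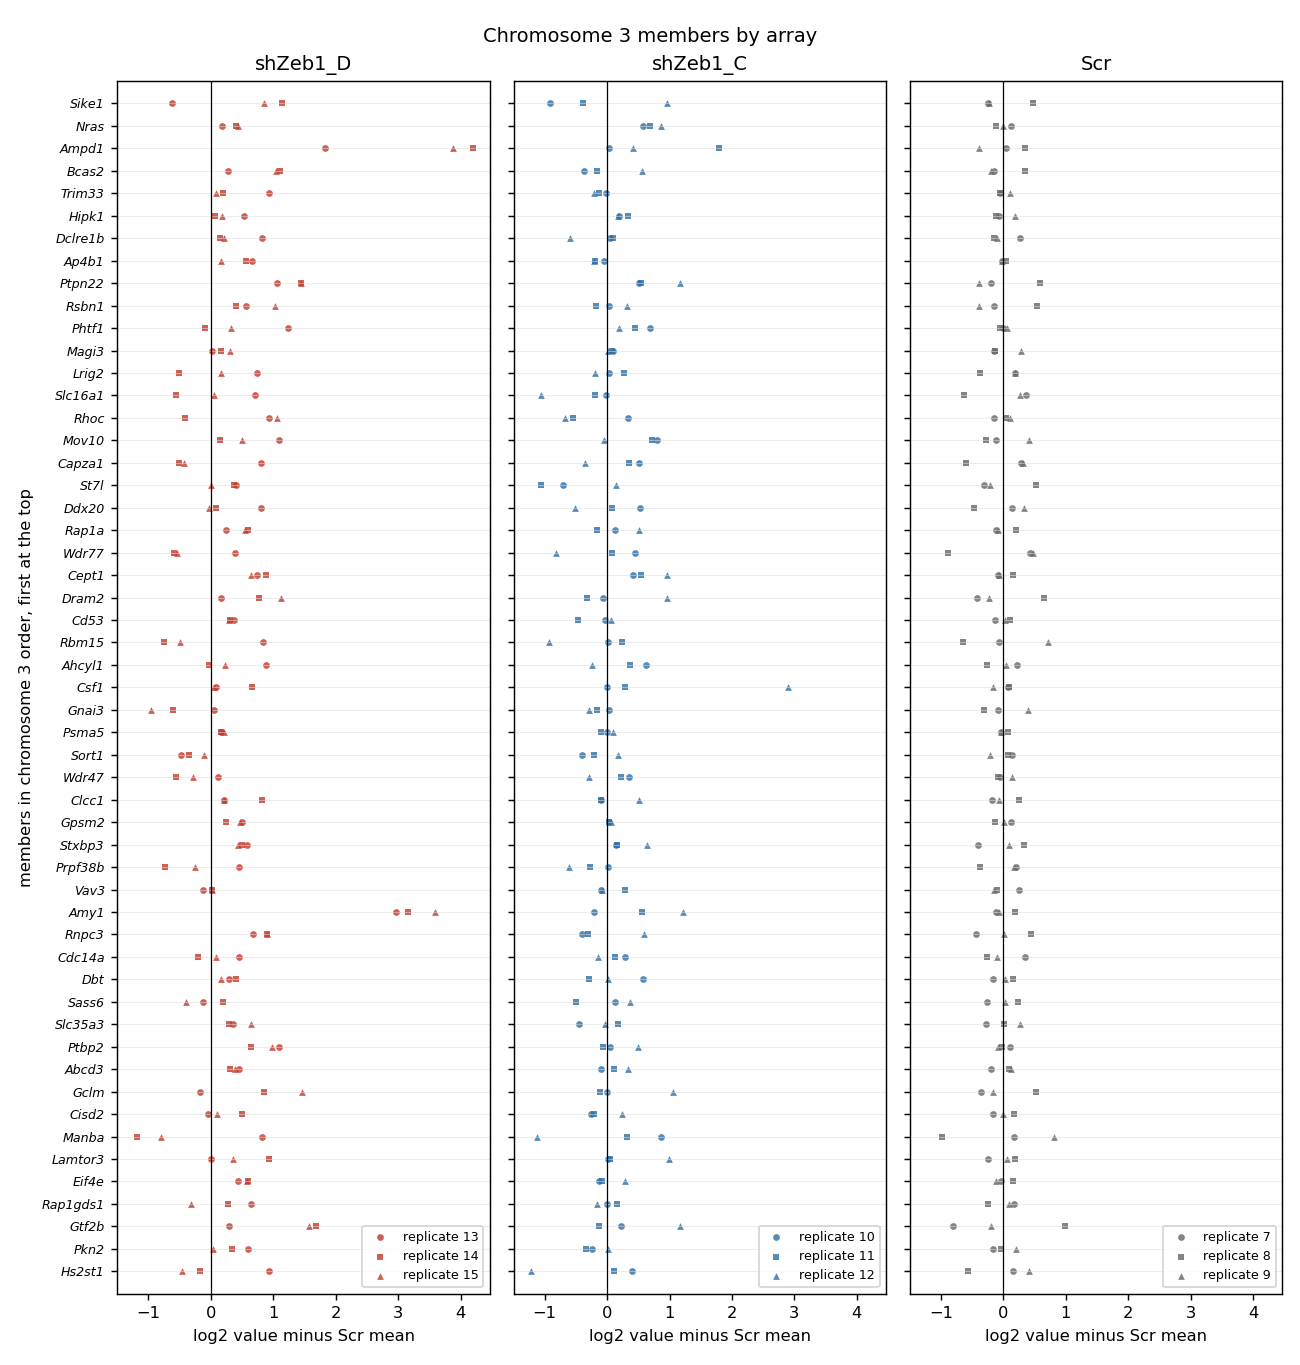
Each row is 1 of the 53 measured members in chromosome 3 order, and each point is the log2 value of 1 array minus the Scr mean of that member, in panels for shZeb1_D, shZeb1_C and Scr. Most shZeb1_D points lie to the right of 0, with Ampd1 and Amy1 farthest out, while the shZeb1_C and Scr points lie on both sides of it.

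The members were not shifted evenly. Their differences between shZeb1_D and Scr ran from -0.50 for Gnai3 to 3.30 for Ampd1. For scale, 3 copies of a gene in place of 2 would raise its RNA by 0.58 if RNA followed copy number exactly, and 4 copies in place of 2 would raise it by 1. Of the 53 members 10 lay at or below 0, 32 between 0 and 0.58, 7 between 0.58 and 1, and 4 above 1. Those 4 were Ampd1 (3.30), Amy1 (3.24), Ptpn22 (1.32) and Gtf2b (1.18). Without Ampd1 and Amy1 the median was 0.34. Across the members the mean level in Scr and the shift had a Pearson correlation of -0.11 and a Spearman correlation of 0.08. The Scr mean is also subtracted to form the shift, so the 2 quantities are not independent. These correlations are a description over 53 genes measured on the same arrays. DNA copy number was not measured here, and its part in the shift was not tested.

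The shift was not limited to the members. The following medians count genes whose mean over all 9 arrays was above 7.10, the median level over probe sets. Of the 53 members 49 passed, and Magi3, Csf1, Vav3 and Cisd2 did not. That mean includes the shZeb1_D arrays, so a gene high there alone can pass and raise these medians. Ampd1 passed in this way, with means of 6.22 in Scr, 6.97 in shZeb1_C and 9.52 in shZeb1_D. The bins and chromosome medians below use the same filter. In shZeb1_D against Scr the median was 0.39 over the 49 members and 0.41 over 81 other genes lying between the first and the last member. It was 0.24 over 329 genes before the first member, 0.32 over 31 genes after the last, and -0.07 over 9266 genes of the other chromosomes. Members and the genes interspersed with them therefore had near-equal medians above that level. At all levels they did not, with 0.36 over the 53 members and 0.22 over the 190 genes between them. The all-level medians were 0.17 over 677 chromosome 3 genes outside the span and 0.03 over 18552 genes of other chromosomes. After the median of chromosome 3 genes outside the span and above the median level was subtracted from each array, the median over all 53 members was 0.11.

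Along the chromosome, bins of 50 genes above the median level had median differences between shZeb1_D and Scr of 0.39, 0.39, 0.18, 0.18, 0.21, 0.10, 0.34, 0.38, 0.41 and 0.32, with 40 genes in the last bin. The first 6 bins hold no member, and the first pair of them stood as high as the bins that hold members. The same bins had medians of 0.10, 0.06, 0.09, 0.07, 0.23, 0.17, 0.17, 0.11, 0.07 and 0.07 in shZeb1_C against Scr. The lowest shZeb1_D bin, from Snx27 to H2bc18, lies just before the one in which the members begin.

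**Figure D2:**
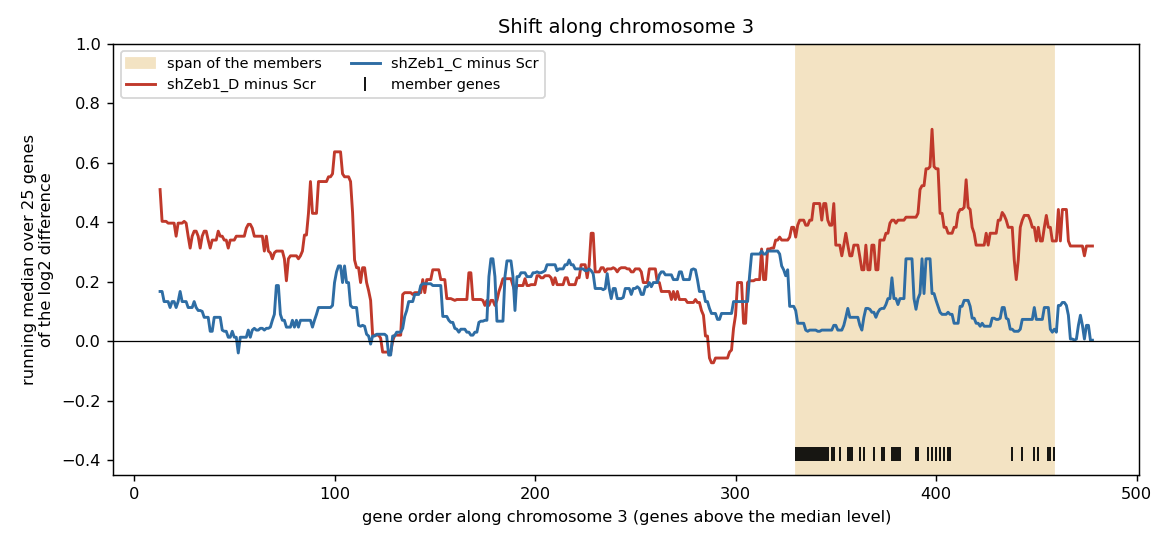
Running median over 25 genes of the log2 difference from Scr, for shZeb1_D and shZeb1_C, against the order of the 490 chromosome 3 genes above the median level, with the span of the members shaded and each member marked by a tick. The shZeb1_D line lies near 0.4 at the start of the chromosome and varies between 0.207 and 0.713 in the shaded span. Between the start and the span it rises to 0.637 and falls as low as -0.073. The shZeb1_C line stays lower than the shZeb1_D line in the span.

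Among the 20 chromosomes compared, chromosome 3 had the highest median in shZeb1_D against Scr, 0.29 over 490 genes above the median level, of which 75.3% were above 0. By array that median was 0.39, 0.24 and 0.23 in shZeb1_D. The other 19 medians ran from -0.25 for chromosome 9 to 0.06 for chromosome 11. In shZeb1_C against Scr chromosome 3 was also above 0, at 0.12, with 0.15, 0.12 and 0.12 by array, and came after chromosome 13 at 0.15. In shZeb1_D against shZeb1_C its median was 0.15, after chromosome 12 at 0.18.

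**Figure D3:**
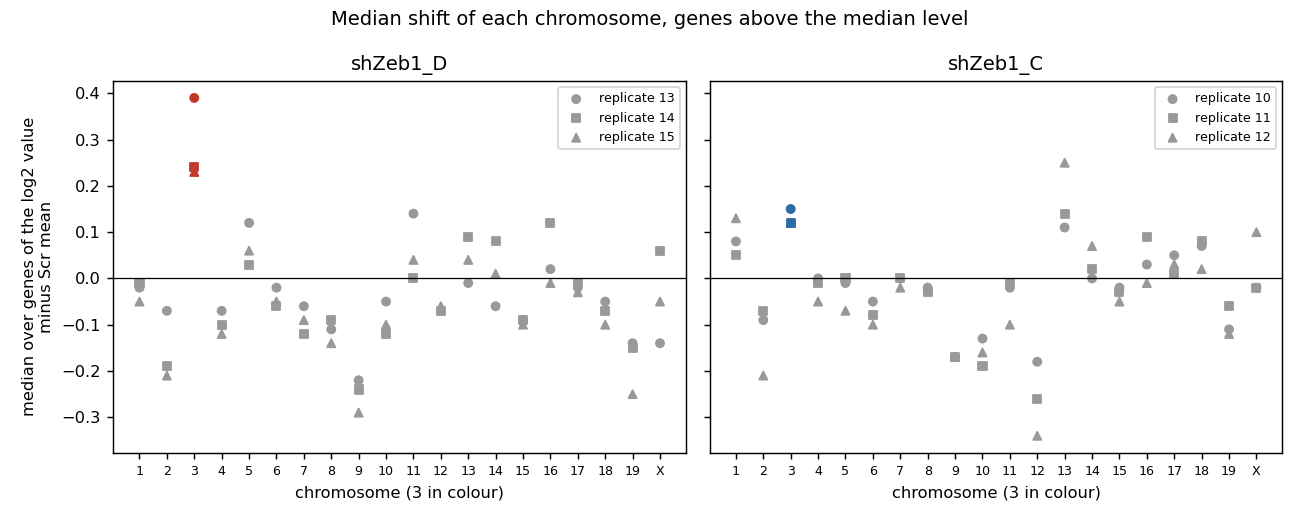
Median over genes above the median level of the log2 value minus the Scr mean, for each chromosome, with 1 point per array in panels for shZeb1_D and shZeb1_C and chromosome 3 in colour. In shZeb1_D the 3 points of chromosome 3 (0.39, 0.24 and 0.23) lie above those of every other chromosome. In shZeb1_C the points of chromosome 3 lie at 0.15, 0.12 and 0.12. They are above every other chromosome on array 10 and below chromosome 13 on arrays 11 and 12.

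Within the list the shift did not fade toward one end. The 18 members from Sike1 to St7l had a median difference between shZeb1_D and Scr of 0.43, the 18 from Ddx20 to Vav3 had 0.28, and the 17 from Amy1 to Hs2st1 had 0.38. Sike1, the first member, which encodes a suppressor of an innate immune kinase, stood at 8.85, 10.61 and 10.32 in shZeb1_D, at 8.55, 9.08 and 10.42 in shZeb1_C and at 9.22, 9.94 and 9.23 in Scr. Hs2st1, the last, a heparan sulfate sulfotransferase, stood at 9.76, 8.65 and 8.37 in shZeb1_D, at 9.22, 8.93 and 7.60 in shZeb1_C and at 8.98, 8.25 and 9.24 in Scr. At both ends the groups overlapped, and in each the arrays of the set of 4 lay on one side within their group. The differences were 0.46 ± 0.55 for Sike1 and 0.10 ± 0.49 for Hs2st1 (SE).

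For 17 of the 53 members all 3 shZeb1_D arrays lay above all 3 Scr arrays, and for 0 members all 3 lay below. Of all 19572 probe sets, 10.3% were separated upward and 6.65% downward in this way. They were Nras, Ampd1, Ap4b1, Ptpn22, Rap1a, Cept1, Cd53, Psma5, Gpsm2, Stxbp3, Amy1, Rnpc3, Dbt, Slc35a3, Ptbp2, Abcd3 and Eif4e. At an adjusted p under 0.05 in limma, 0.843% of all probe sets were called in this comparison, and 1 of the 53 members, Amy1, was among them. The rule that chose the members used the same contrast, so nothing is read from either count.

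Among the 14 signalling members the median difference between shZeb1_D and Scr was 0.33. Nras, a RAS GTPase often mutated in myeloid leukaemia, stood at 12.22, 12.45 and 12.47 in shZeb1_D, at 12.62, 12.72 and 12.91 in shZeb1_C and at 12.17, 11.92 and 12.03 in Scr. The 3 groups did not overlap, and shZeb1_C was the highest of them. Nras differed by 0.34 ± 0.15 (SE) between shZeb1_D and Scr and by 0.71 ± 0.15 between shZeb1_C and Scr. Its relative Rap1a, a GTPase of integrin-mediated adhesion, stood at 14.05, 14.40 and 14.35 in shZeb1_D, at 13.93, 13.65 and 14.31 in shZeb1_C and at 13.69, 14.01 and 13.71 in Scr. For Rap1a the shZeb1_D arrays lay above Scr and overlapped shZeb1_C, with a difference from Scr of 0.46 ± 0.20.

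Ptpn22 encodes a phosphatase that restrains antigen receptor signalling in lymphocytes. It stood at 14.31, 14.69 and 14.69 in shZeb1_D, at 13.75, 13.78 and 14.41 in shZeb1_C and at 13.05, 13.83 and 12.85 in Scr. All shZeb1_D arrays were above all Scr arrays, and shZeb1_C lay between, with array 12 reaching the shZeb1_D range. The difference was 1.32 ± 0.28 in shZeb1_D and 0.74 ± 0.28 in shZeb1_C, each against Scr. Within the sets of arrays the shZeb1_D difference was 1.36 and 0.86.

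Gnai3, an inhibitory G protein alpha subunit, ran against the others. It stood at 11.68, 11.03 and 10.68 in shZeb1_D, at 11.66, 11.47 and 11.35 in shZeb1_C and at 11.55, 11.33 and 12.02 in Scr. Arrays 14 and 15 lay below every other array while array 13 lay inside the Scr range, and the difference from Scr was -0.50 ± 0.27. Vav3, a guanine nucleotide exchange factor, was not above the median level and stood at 6.07, 6.22 and 6.22 in shZeb1_D, at 6.09, 6.48 and 6.11 in shZeb1_C and at 6.45, 6.09 and 6.04 in Scr. Its groups overlapped, and the difference between shZeb1_D and Scr was -0.02 ± 0.17. The other signalling members in shZeb1_D against Scr ran from 0.11 for Cdc14a, a phosphatase, to 0.53 for Rhoc. Gpsm2, which binds inhibitory G alpha subunits during spindle orientation, differed by 0.41 ± 0.14 and Pkn2, a protein kinase, by 0.32 ± 0.19.

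All 5 measured members of transcription and chromatin were higher in shZeb1_D than in Scr, with a median of 0.49. Gtf2b, which encodes the general initiation factor TFIIB, stood at 11.30, 12.68 and 12.57 in shZeb1_D, at 11.22, 10.87 and 12.17 in shZeb1_C and at 10.20, 11.99 and 10.81 in Scr. The array sets were visible within each group, Scr 8 lay above shZeb1_D 13, and the difference of 1.18 ± 0.53 became 0.80 and 0.63 within the sets. Trim33, a ubiquitin ligase of SMAD signalling, stood at 13.43, 12.68 and 12.58 in shZeb1_D, at 12.47, 12.36 and 12.28 in shZeb1_C and at 12.44, 12.44 and 12.59 in Scr. Trim33 was highest on array 13, while arrays 14 and 15 lay near the top of the Scr range, for a difference of 0.41 ± 0.22.

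The 8 members of RNA processing and translation had the highest median of the 6 role groups in shZeb1_D against Scr, 0.56, but a wide spread. Ptbp2, a splicing regulator best known from neurons, stood at 13.13, 12.67 and 13.01 in shZeb1_D, at 12.08, 11.96 and 12.53 in shZeb1_C and at 12.14, 12.01 and 11.94 in Scr. Its shZeb1_D arrays lay above all 6 others, with a difference from Scr of 0.91 ± 0.19 overall and of 1.09 and 0.83 within the array sets. Rnpc3, a protein of the U11/U12 particle that recognises minor introns, stood at 11.15, 11.37 and 11.38 in shZeb1_D, at 10.07, 10.17 and 11.06 in shZeb1_C and at 10.03, 10.91 and 10.48 in Scr. It too was separate from the other groups in shZeb1_D, by 0.83 ± 0.30 from Scr.

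Eif4e, the protein that binds the cap of messenger RNA to start translation, stood at 13.84, 14.00 and 13.97 in shZeb1_D, at 13.27, 13.32 and 13.69 in shZeb1_C and at 13.36, 13.55 and 13.28 in Scr. The shZeb1_D arrays were close together and above all others, 0.54 ± 0.16 higher than Scr. In contrast Wdr77, the partner of an arginine methyltransferase, stood at 13.69, 12.71 and 12.76 in shZeb1_D, at 13.74, 13.38 and 12.48 in shZeb1_C and at 13.72, 12.41 and 13.77 in Scr. Rbm15, an adaptor of RNA adenosine methylation, stood at 11.44, 9.85 and 10.10 in shZeb1_D, at 10.62, 10.84 and 9.67 in shZeb1_C and at 10.53, 9.95 and 11.31 in Scr. For both genes the 4 arrays that stood apart were the lowest in their groups, and the groups overlapped, with differences between shZeb1_D and Scr of -0.25 ± 0.45 and -0.13 ± 0.49. Bcas2 (0.81 ± 0.30) and Mov10 (0.58 ± 0.31) completed the higher members of this role, but for both the shZeb1_D and Scr arrays overlapped. Prpf38b was at -0.17 ± 0.31.

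The 11 members of metabolism and transport held the pair with by far the widest differences and had a median of 0.38. Ampd1, an AMP deaminase typical of skeletal muscle, stood at 8.05, 10.42 and 10.10 in shZeb1_D, at 6.25, 8.01 and 6.64 in shZeb1_C and at 6.27, 6.57 and 5.83 in Scr. Amy1, a starch-digesting amylase of salivary gland and liver, stood at 11.21, 11.40 and 11.84 in shZeb1_D, at 8.04, 8.81 and 9.47 in shZeb1_C and at 8.13, 8.44 and 8.17 in Scr. For both genes every shZeb1_D array was above every other array. The difference between shZeb1_D and Scr was 3.24 ± 0.33 for Amy1 (a fold of 9.43) and 3.30 ± 0.63 for Ampd1. For Ampd1 all 3 Scr arrays and shZeb1_C arrays 10 and 12 lay below 7.10, the median level over probe sets, and its overall mean exceeded that level through its shZeb1_D mean of 9.52. The difference between shZeb1_D and Scr for Ampd1 was 2.00 within the set of 5 arrays and 3.69 within the set of 4, and for Amy1 it was 3.06 and 3.18.

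Amy1 has related amylase genes beside it, and how signal is split among their probe sets is uncertain and was not tested. The probe sets of Amy2b, Amy2a5, Amy2a4 and Amy2a2 were also higher in shZeb1_D than in Scr, by 0.95, 0.95, 1.20 and 0.95. In shZeb1_C against Scr they differed by 0.28, 0.42, 0.38 and 0.34, against 0.53 for Amy1 itself. All amylase probe sets thus stood on the same side, with Amy1 farthest out.

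Slc16a1, the lactate transporter MCT1, stood at 12.15, 10.88 and 11.48 in shZeb1_D, at 11.42, 11.24 and 10.37 in shZeb1_C and at 11.79, 10.81 and 11.70 in Scr, with overlapping groups and a difference between shZeb1_D and Scr of 0.07 ± 0.40. Gclm, the modifier subunit of the enzyme that starts glutathione synthesis, stood at 10.98, 12.01 and 12.61 in shZeb1_D, at 11.15, 11.04 and 12.21 in shZeb1_C and at 10.79, 11.68 and 10.99 in Scr. The groups overlapped for Gclm too, at 0.71 ± 0.45, with 0.09 within the set of 5 and 0.63 within the set of 4. Manba, a lysosomal mannosidase, stood at 9.65, 7.65 and 8.04 in shZeb1_D, at 9.70, 9.16 and 7.72 in shZeb1_C and at 9.01, 7.86 and 9.64 in Scr. Its values split by the array sets rather than by group, and the difference between shZeb1_D and Scr, -0.39 ± 0.67, was 0.33 within the set of 5 and -0.02 within the set of 4. Cept1, which makes phosphatidylcholine and phosphatidylethanolamine, was higher in shZeb1_D than in Scr by 0.76 ± 0.18, Slc35a3, a Golgi nucleotide sugar transporter, by 0.43 ± 0.21, and Abcd3, a peroxisomal transporter, by 0.38 ± 0.16.

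Membrane, trafficking and proteolysis genes, 11 in all, had a median difference of 0.26 between shZeb1_D and Scr. Cd53, a tetraspanin of leukocytes, stood at 15.18, 15.12 and 15.10 in shZeb1_D, at 14.78, 14.34 and 14.87 in shZeb1_C and at 14.67, 14.92 and 14.84 in Scr. Psma5, a proteasome alpha subunit, stood at 16.44, 16.43 and 16.49 in shZeb1_D, at 16.28, 16.17 and 16.37 in shZeb1_C and at 16.23, 16.35 and 16.24 in Scr. In both genes the shZeb1_D arrays lay above the 6 others with little spread, by 0.32 ± 0.17 and 0.18 ± 0.13 over Scr.

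Csf1, the growth factor of macrophages, was below the median level on 8 of 9 arrays. It stood at 6.30, 6.88 and 6.28 in shZeb1_D, at 6.23, 6.51 and 9.12 in shZeb1_C and at 6.30, 6.31 and 6.06 in Scr. Array 12 of shZeb1_C alone was high, and without it the shZeb1_C values lay close to Scr. Sort1, the sorting receptor sortilin, stood at 6.90, 7.03 and 7.27 in shZeb1_D, at 6.98, 7.17 and 7.55 in shZeb1_C and at 7.52, 7.45 and 7.16 in Scr, a difference between shZeb1_D and Scr of -0.31 ± 0.19 with overlapping groups. Dram2, a lysosomal membrane protein, was higher in shZeb1_D than in Scr by 0.68 ± 0.40, but the groups overlapped, with Scr 8 (12.76) above shZeb1_D 13 (12.27). Stxbp3, a regulator of vesicle fusion, and Ap4b1, a subunit of the AP-4 coat, were higher by 0.51 ± 0.22 and 0.47 ± 0.16 without overlap.

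The 4 genes of DNA repair, centrosome and cytoskeleton were the role group with a median below 0, -0.08 in shZeb1_D against Scr. The nuclease gene Dclre1b was at 0.39 ± 0.25, while Capza1, which caps actin filaments, Sass6, a centriole protein, and Wdr47, a microtubule-associated protein, were at -0.04 ± 0.40, -0.11 ± 0.25 and -0.24 ± 0.22. In the order of the members, Capza1 and Sass6 lie between ones that stood above 0, and Wdr47 follows Sort1, which did not. Other genes lie between Sort1 and Wdr47, among them Sars (-0.29), Tmem167b (0.40) and Taf13 (0.69). Capza1 starts head to head with St7l (0.26 ± 0.33), with 0 bases between their annotated starts.

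**Figure D4:**
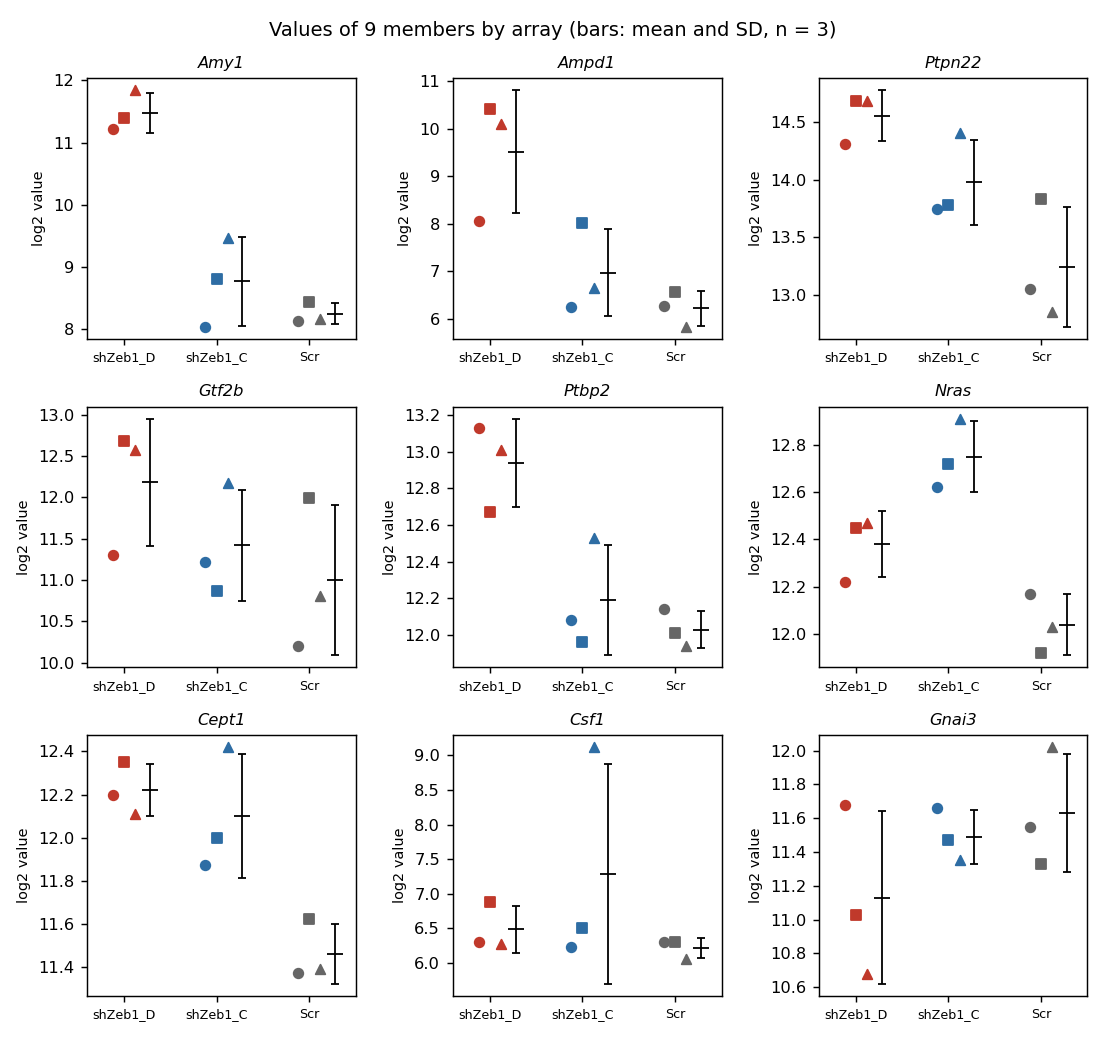
Log2 values of 9 members on each array, in shZeb1_D, shZeb1_C and Scr from left to right, with the mean and SD of each group (n = 3) beside the points; each panel has its own axis, which does not start at 0. For Amy1, Ampd1 and Ptbp2 the shZeb1_D points lie above all others, for Nras the shZeb1_C points are highest, Csf1 has 1 high shZeb1_C array (9.12), and for Gnai3 shZeb1_D arrays 14 and 15 are lowest.

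Promoter sequence was set beside the shifts because Zeb1 binds E-boxes. The RefSeq table (GRCm38.p6) held promoters for 44 of the 53 measured members, 60 start sites in all, and the 250 bases upstream of each were searched for CACCTG on both strands, which reads CAGGTG on the strand opposite. This motif was present in 6 of the 60 member windows (10.0%) and in 5657 of all 32851 windows (17.2%), or in 5 of 44 member genes (11.4%) and 5252 of 27025 genes (19.4%). Member windows were richer in G and C, with a median of 60.8% against 52.4%. The median difference between shZeb1_D and Scr was 0.36 over the 5 members with the motif and 0.32 over the 39 without it. A match describes letters and not a bound site.

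The 4 windows below, each 250 bases upstream of an annotated start, show the range of shifts. They belong to Amy1 and Gtf2b, which were among the highest in shZeb1_D, to Stxbp3, which was 0.51 higher and holds 1 motif, and to Gnai3, the lowest. They overlap no annotated gene and were picked after their values were seen. Sequences are from RefSeq on GRCm38.p6, written 5′ to 3′ on the strand of the gene in lower case, with the motif in capitals.
Amy1 (chr3:113577751-113578000, minus strand): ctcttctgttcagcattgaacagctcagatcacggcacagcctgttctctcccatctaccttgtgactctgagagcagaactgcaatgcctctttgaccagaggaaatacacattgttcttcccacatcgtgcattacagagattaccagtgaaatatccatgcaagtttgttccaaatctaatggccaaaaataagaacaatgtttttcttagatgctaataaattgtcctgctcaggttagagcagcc
Gtf2b (chr3:142764997-142765246, plus strand): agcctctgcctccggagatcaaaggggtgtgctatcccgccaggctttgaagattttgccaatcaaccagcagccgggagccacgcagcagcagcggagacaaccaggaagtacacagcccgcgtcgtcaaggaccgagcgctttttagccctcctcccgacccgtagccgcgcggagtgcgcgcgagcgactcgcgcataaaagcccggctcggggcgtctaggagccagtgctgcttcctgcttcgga
Stxbp3 (chr3:108840503-108840752, minus strand): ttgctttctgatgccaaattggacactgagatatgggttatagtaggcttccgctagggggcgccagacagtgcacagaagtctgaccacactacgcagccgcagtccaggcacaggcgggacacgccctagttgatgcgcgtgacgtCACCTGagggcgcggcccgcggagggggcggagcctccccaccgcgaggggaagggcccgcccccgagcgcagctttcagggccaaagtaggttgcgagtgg
Gnai3 (chr3:108146153-108146402, minus strand): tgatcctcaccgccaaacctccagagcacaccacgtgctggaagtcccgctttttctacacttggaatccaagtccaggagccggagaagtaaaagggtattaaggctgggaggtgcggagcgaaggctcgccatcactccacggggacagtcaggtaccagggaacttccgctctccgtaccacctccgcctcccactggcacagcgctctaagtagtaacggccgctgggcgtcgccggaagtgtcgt

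The windows of Amy1, Gtf2b and Gnai3 hold neither CACCTG nor CAGGTG, and the one of Stxbp3 holds CACCTG once. They also differ in base composition, with 42.4% G and C for Amy1, 63.6% for Gtf2b, 64.4% for Stxbp3 and 59.6% for Gnai3. A total of 3 pairs of members start head to head within 300 bases of each other. Dclre1b and Ap4b1 were both higher in shZeb1_D than in Scr (0.39 and 0.47), as were Cept1 and Dram2 (0.76 and 0.68), while Capza1 and St7l stood at -0.04 and 0.26.

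In cells labelled shZeb1_C the members as a group lay close to Scr. Their median difference was 0.04, with a middle range from -0.11 to 0.24 and 33 of 53 above 0, against a median of 0.00 over all named probe sets. The shZeb1_C arrays were not used to choose the members, but the Scr arrays were, so this comparison is only partly independent of the choice. In limma with Benjamini-Hochberg adjustment over all 19572 probe sets 0 members were called, where 0.945% of all probe sets were, and 3 were higher and 0 lower at an unadjusted p under 0.05, where 4.52% of all probe sets were higher and 4.26% lower. Those 3 were Nras (0.71 ± 0.15, limma adjusted p = 0.075), Cept1 (0.64 ± 0.18, limma adjusted p = 0.194) and Ptpn22 (0.74 ± 0.28, limma adjusted p = 0.444).

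Cept1 stood at 12.20, 12.35 and 12.11 in shZeb1_D, at 11.87, 12.00 and 12.42 in shZeb1_C and at 11.37, 11.62 and 11.39 in Scr, so that both hairpin groups lay above Scr and overlapped each other. For 3 members, Nras, Phtf1 and Cept1, all shZeb1_C arrays were above all Scr arrays, beside 7.5% of all probe sets. For 1 member, Ap4b1, all were below, beside 6.74% of all probe sets. Neither count stands above its background. These genes are named here for their separation, which was seen first. The largest difference, 1.06 ± 0.63 for Csf1, came from array 12 (limma adjusted p = 0.776). After the rest of chromosome 3 was subtracted the members' median in shZeb1_C against Scr was -0.11, and after each array's own median was subtracted it was -0.03, so its sign is not settled.

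Set directly against each other, shZeb1_D stood above shZeb1_C over the members by a median of 0.26, with a middle range from 0.08 to 0.53 and 43 of 53 above 0, beside a median of 0.04 over all named probe sets. The shZeb1_D arrays chose the members, so this too is a description. Amy1 (2.71 ± 0.33) and Ampd1 (2.56 ± 0.63) were again farthest out, followed by Rnpc3 (0.87 ± 0.30) and Rhoc (0.82 ± 0.40). In 14 members all shZeb1_D arrays were above all shZeb1_C arrays, beside 8.99% of all probe sets, and in 1, Nras (-0.37 ± 0.15), all were below, beside 6.26%. Limma called 1 member, Amy1, where 0.848% of all probe sets were called. Without the 4 arrays that stood apart the median was 0.43.

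Genes that work with the members but are coded on other chromosomes had medians below 0. So did genes of those chromosomes above the median level. The list held 96 subunits, relatives and pathway partners, drawn up for the members' roles, of which 87 were measured, 5 of them on chromosome 3. In shZeb1_D against Scr limma called 0 of the 87. At an unadjusted p under 0.05, 6 were higher and 13 lower, where 7.52% of all probe sets were higher and 6.09% lower. In shZeb1_C against Scr it called 0, with 7 higher and 13 lower at that p, where 4.52% and 4.26% of all probe sets were. In shZeb1_D against shZeb1_C it called 0, with 4 higher and 7 lower, where 6.1% and 5.56% of all probe sets were. Over the 82 partners on other chromosomes the median difference between shZeb1_D and Scr was -0.15, with 29 above 0. Genes of other chromosomes had -0.07 above the median level and 0.03 at all levels. In shZeb1_C against Scr the partners' median was -0.12, beside -0.04 and -0.0. In shZeb1_D against shZeb1_C it was -0.03, beside -0.03 and 0.04.

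The 5 partners that lie on chromosome 3 differed between shZeb1_D and Scr by 0.77 for Plrg1, 0.70 for Lamtor5, 0.67 for Lamtor2, 0.20 for Rap2b and -0.08 for Mettl14. Lamtor5 and Lamtor2 belong with the member Lamtor3 (0.43 ± 0.31) to Ragulator, the lysosomal scaffold of nutrient signalling, whose 2 partners on other chromosomes lay below 0. Plrg1 belongs with Bcas2 to the PRP19 splicing complex, whose 3 other listed partners lay below 0. Mettl14 belongs with Rbm15 to the RNA methylation complex, where 0 of 6 measured partners, Mettl14 included, lay above 0. Rap2b averaged 4.50 in Scr, below the median level. Lamtor5 and Mettl14 lie between the first and the last member. In shZeb1_D against Scr the partners with the smallest p-values were Zc3h13 (-0.68 ± 0.16), a partner of Rbm15 in RNA methylation, Lamtor5 (0.70 ± 0.18) and Rras2 (1.29 ± 0.34), a RAS relative, at limma adjusted p of 0.107, 0.140 and 0.144. In shZeb1_C against Scr they were Cbll1 (-0.70 ± 0.14), Rel (1.32 ± 0.28) and Mras (2.77 ± 0.59), at 0.0659, 0.0777 and 0.0798. In shZeb1_D against shZeb1_C they were Bcl3 (-0.98 ± 0.18), Nfkb2 (-0.98 ± 0.21) and Rap2a (1.08 ± 0.24), at 0.0527, 0.0840 and 0.0971. None of these passed the threshold.

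**Figure D5:**
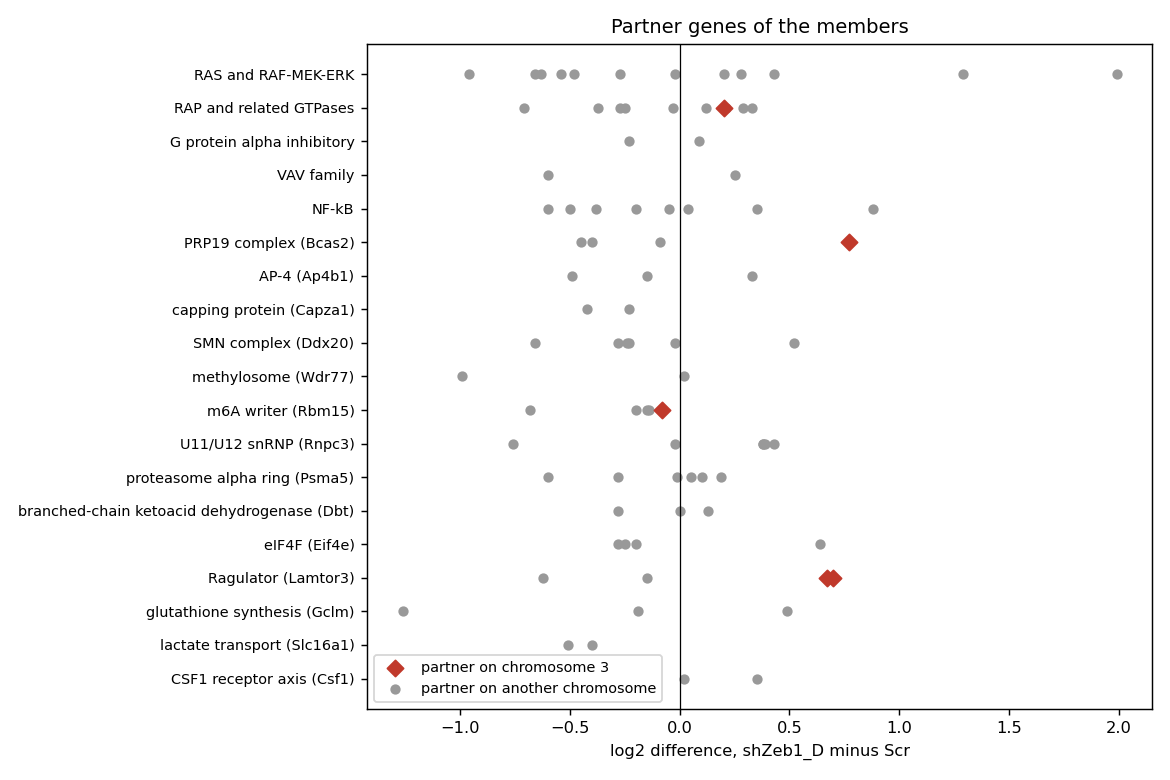
Log2 difference between shZeb1_D and Scr of the 87 measured partner genes, 1 point per gene, by the complex or family they share with a member; red diamonds are the 5 partners on chromosome 3 and grey points the 82 on other chromosomes. The grey points lie on both sides of 0, with a median of -0.15. Of the red diamonds, 3 lie near 0.7 and the others at 0.20 and -0.08.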

How the data were processed

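Expression of C1498 cells was measured on 9 arrays, 3 per group, 2 weeks after infection. Per the submitters' processing notes, the tools were RMA and the Transcriptome Analysis Console (no version stated). The deposited score per probe set is a linear RMA signal whose decimal point is missing. Each of the 199854 values was returned to log2 by the place of the point that makes log2 a multiple of 0.01, within 1e-06 steps, and values ran from 3.26 to 17.44. Array medians were 6.97 to 7.16. No pair of arrays was identical (Pearson r across probe sets 0.9684 to 0.9949). Of 22206 probe sets, 19572 had 1 symbol in the platform annotation, 0 several, and 2634 are unnamed here. Gene order, chromosome and promoters came from RefSeq tables of GRCm38.p6. Which build the array annotation used was not given in the sources used here.

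The fit was limma 3.58.1 in R 4.3.3, with a mean per group, all 9 arrays, empirical Bayes moderation and Benjamini-Hochberg adjustment over all named probe sets in each comparison, and calls at an adjusted p under 0.05. The fit was tested on simulated data. Precision is limited by how many arrays there are. The members, partner lists and tests were chosen with earlier results of these data known. Members given by array were the 6 highest and 4 lowest in shZeb1_D against Scr, the first and last in order, any called in shZeb1_C, and 13 named for roles in leukaemia, immunity or metabolism (Nfkb1 among them, not analysed here). Cept1 was added after its values were seen. Up to 3 partners per comparison were named. Other settings covered normalization, dim probe sets, the variance prior, probe sets per gene, arrays in the fit, array weights, leaving out each array and, chosen after seeing the data, all settings for Zeb1, the 4 arrays that stood apart and the rest of chromosome 3.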

Additional observations from a re-analysis of the deposited data

Results flagged for a closer look

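For Trim33 and Ap4b1 every shZeb1_D array lay above the Scr mean and every shZeb1_C array below it. Trim33 differed by 0.53 and Ap4b1 by 0.62 (log2) between shZeb1_D and shZeb1_C. The difference of these opposite directions was not tested, because the shZeb1_D arrays chose the members. In shZeb1_C against Scr Trim33 differed by -0.12 ± 0.22 and Ap4b1 by -0.15 ± 0.16 (SE; limma adjusted p = 0.995 and 0.948). For Trim33 both hairpin groups overlapped Scr, and for Ap4b1 neither did. How many of all probe sets share this pattern was not counted.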

How the results depend on the processing

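Leaving out each array in turn moved the members' median to between 0.30 and 0.39 in shZeb1_D against Scr, between 0.02 and 0.08 in shZeb1_C against Scr, and between 0.19 and 0.33 in shZeb1_D against shZeb1_C. Members called numbered 1 to 2, 0 and 1 to 2 in those fits, with 2 in shZeb1_D against Scr without Scr 8, shZeb1_C 12 or shZeb1_D 13, and 2 in shZeb1_D against shZeb1_C without shZeb1_D 13. Partners called stayed at 0 in shZeb1_D against Scr and were 0 to 1 in the other comparisons, with 1 in shZeb1_C without shZeb1_D 13 and 1 in shZeb1_D against shZeb1_C without Scr 9. Over all probe sets these fits called 14 (without Scr 9) to 213 (without shZeb1_C 12), 43 (without Scr 9) to 214 (without shZeb1_D 13) and 49 (without shZeb1_D 15) to 162 (without Scr 8), beside 165, 185 and 166 with all arrays. In shZeb1_C against Scr the median was -0.03 with array medians subtracted and -0.11 with the rest of chromosome 3 subtracted, which also left 0.11 in shZeb1_D against Scr. Without the 4 arrays that stood apart, which leaves 1 shZeb1_D array assumed to vary like the others, the median in shZeb1_D against shZeb1_C was 0.43.

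Against 1 member called in shZeb1_D against Scr, 2 were called among probe sets above the median level, 2 with a trended robust prior, 7 with array weights, 3 without the 4 arrays, 6 with their set as a covariate and 2 with the rest of chromosome 3 subtracted. Against 0 in shZeb1_C, 1 was called with array weights (Nras) and 3 with the covariate (Nras, Cept1 and Ptpn22). Against 1 in shZeb1_D against shZeb1_C, 6 and 3 were called under those settings. Against 0 partners called, array weights gave 7 in shZeb1_D against Scr, 4 in shZeb1_C against Scr and 5 in shZeb1_D against shZeb1_C, and the covariate gave 6, 8 and 7. Without the 4 arrays the first pair of counts was 1 and 5. With the rest of chromosome 3 subtracted 1 was called in shZeb1_D against Scr and 2 in shZeb1_D against shZeb1_C, and with array medians subtracted 1 in shZeb1_C against Scr and 1 in shZeb1_D against shZeb1_C. Quantile normalization and the trended robust prior each gave 1 in shZeb1_D against shZeb1_C. Calls over all probe sets in shZeb1_D against Scr, shZeb1_C against Scr and shZeb1_D against shZeb1_C moved too. They were 1076, 572 and 833 with array weights, 772, 875 and 700 with the covariate, 273, 424 and 234 without the 4 arrays, 459, 215 and 235 with the rest of chromosome 3 subtracted, and 68, 125 and 81 with only the groups compared. Under array weights and the covariate, calls over all probe sets and among members and partners were all more numerous than in the reported fit. The covariate was drawn from the residuals of these same values, so it takes up residual spread by construction. Array weights were also estimated from these values. The added calls under both settings are therefore no independent support for the genes called. The trended robust prior gave 119, 156 and 144, quantile normalization 155, 185 and 195, subtracted array medians 148, 177 and 152, and probe sets above the median level 162, 173 and 158 of 9786 tested. What else moved the calls between settings was not tested. The mean over all probe sets of a member equals the reported value, since each has 1. No paired analysis was possible because the groups share no replicate numbers. For Zeb1 in shZeb1_D against Scr the difference was -1.13 to -0.98 with any 1 array left out, and the call was also lost with the trended robust prior (-1.05), with only the groups compared in the fit (-1.05) and without the 4 arrays (-0.98). In shZeb1_D against shZeb1_C Zeb1 was called lower with array weights (-0.87), with the covariate (-0.81) and with the rest of chromosome 3 subtracted (-0.95).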

Other observations

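Outside chromosome 3, the probe sets whose values over the 9 arrays most resembled the per-array median of the members were Pgap1 on chromosome 1 (Pearson r = 0.957), Dmtf1 on chromosome 5 (0.948), Lcn10 on chromosome 2 (0.939), Dnajb6 on chromosome 5 (0.939) and Rai14 on chromosome 15 (0.937). These 5 are given as a description, and the 9 arrays share their groups and array sets. They differed between shZeb1_D and Scr by 0.93, 1.27, 0.28, 0.64 and 2.38.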
